A study of Mus musculus with 8 samples.

Results

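Prostanoids are short-range lipid signals made from arachidonic acid, and 10 genes of this system were followed across the cells of the mouse iris, out of 22873 genes counted. They were taken by name and not by their values. 5 of them encode synthetic enzymes (*Ptgs1*, *Ptgs2*, *Ptgds*, *Ptgis* and *Ptges*) and 5 encode receptors (*Ptgfr*, *Ptger1*, *Ptger2*, *Ptger3* and *Ptger4*). The cyclooxygenases, encoded by *Ptgs1* and *Ptgs2*, turn arachidonic acid into a shared precursor, and a terminal synthase in the same cell then decides which prostanoid is made. *Ptgs1* is the form that many cells express steadily, while *Ptgs2* is the form that stimuli induce. The products leave the cell and act on G protein-coupled receptors nearby. In the eye, prostaglandins are known for their effects on pupil size, on the blood-aqueous barrier and on intraocular pressure, and analogs of prostaglandin F are glaucoma drugs.

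The nuclei came from irises, with some ciliary body, of wild-type albino female mice 6 to 8 weeks old. For the dilated group, drops of 5% phenylephrine and 1% cyclopentolate were given hourly for 6 hours and the mice were held in the dark. For the constricted group, 5% pilocarpine was given in the same way and the mice were held in the light, and the irises of both groups were taken 30 min after the last drops. Untreated mice received no drops. There were 3 untreated, 3 constricted and 2 dilated libraries, each a separate pool of 5 or 6 irises, so that a value of a library is an average over animals. Drug and lighting changed together in both treated groups and cannot be told apart, and which library belonged to which of the 5 collection batches was not given in the sources used here.

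The 8 libraries held 34357 nuclei and 109565284 unique molecular identifiers (UMIs), 5189437 to 25136427 per library, with a median of 2775 to 4697.5 UMIs per nucleus. The authors sorted the nuclei into 10 cell types. Hand-written marker lists were highest in their own cell type for 6 of the 10 types, with the list for the stromal cells called stroma 2 (*Tfap2b*, *Dcn*, *Col1a2*, *Lum*) at 5383 counts per 1000000 UMIs (CPM) there and at 349 in the next type. The lists for dilator muscle and sphincter 2 share smooth muscle genes with the other muscle types. The list for the ciliary body epithelium (CBE: *Zic1*, *Slc4a4*, *Cdh3*) was at 6619 CPM in the nuclei named CB, the ciliary body, and at 812 in those named CBE, and the CB list (*Pdgfrb*, *Myh11*, *Des*) was at 54.6 CPM in CB, so the markers go against these 2 names, which are kept here only as the authors' labels. In all, 195 of 34152 distinct barcodes occurred in more than 1 library.

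7 of the 10 genes had their highest untreated level in stroma 2, a type that made up 21.2% of the untreated nuclei and 17% of their UMIs. These were *Ptgs2*, *Ptgis*, *Ptges*, *Ptgfr*, *Ptger1*, *Ptger2* and *Ptger4*. *Ptgs1* was highest in leukocytes, *Ptgds* in CBE and *Ptger3* in the iris pigment epithelium (iris PE). Levels are CPM of the UMIs summed over the nuclei of a cell type in a library, given as mean ± SD over the 3 untreated libraries. No gene length enters CPM, so levels were compared between cell types and not between genes, and no p-value is given between cell types because they were clustered from the same counts.

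**Figure D1:**
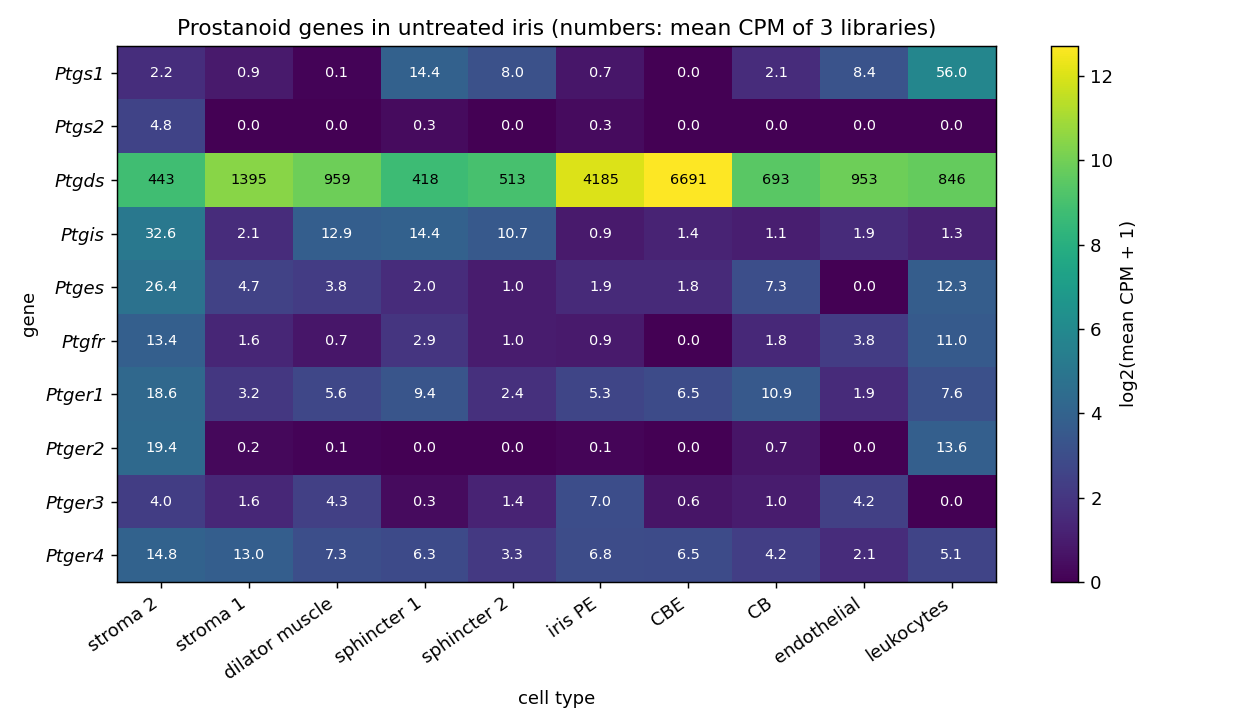
Mean level of the 10 genes (rows) in the 10 cell types (columns) of untreated irises, in CPM (printed) and as log2(mean CPM + 1) (color), over 3 libraries. The stroma 2 column holds the highest value in 7 of 10 rows, and *Ptgds* is above 400 CPM in every column.

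The promoters of 3 genes are shown because *Ptgs1* and *Ptgs2* encode the steady and the inducible cyclooxygenase, and *Ptgs2* and *Ptgfr* were both higher in stroma 2 after dilation. Each run starts 250 bases before the RefSeq transcript start and ends 30 bases after it (GRCm38.p6), and capitals mark matches on either strand to the CRE half-site TGACG, the palindromic E-box CACGTG, the AP-1 motif TGANTCA, the TATA box TATAAA or the C/EBP motif TTNNGCAA. The positions are chr2:36230176-36230455 (+ strand) for *Ptgs1*, chr1:150099781-150100060 (+ strand) for *Ptgs2* and chr3:151837499-151837778 (- strand) for *Ptgfr*.
Ptgs1: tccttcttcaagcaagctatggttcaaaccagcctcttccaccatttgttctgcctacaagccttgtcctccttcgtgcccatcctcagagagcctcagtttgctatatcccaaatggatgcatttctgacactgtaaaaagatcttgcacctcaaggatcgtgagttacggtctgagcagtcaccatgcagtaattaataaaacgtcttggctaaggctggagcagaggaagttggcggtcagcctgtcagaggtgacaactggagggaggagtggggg
Ptgs2: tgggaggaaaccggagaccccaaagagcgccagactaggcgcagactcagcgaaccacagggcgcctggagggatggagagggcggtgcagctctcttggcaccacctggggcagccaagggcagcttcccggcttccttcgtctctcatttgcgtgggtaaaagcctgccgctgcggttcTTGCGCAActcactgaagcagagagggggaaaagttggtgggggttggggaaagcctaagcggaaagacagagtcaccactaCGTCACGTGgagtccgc
Ptgfr: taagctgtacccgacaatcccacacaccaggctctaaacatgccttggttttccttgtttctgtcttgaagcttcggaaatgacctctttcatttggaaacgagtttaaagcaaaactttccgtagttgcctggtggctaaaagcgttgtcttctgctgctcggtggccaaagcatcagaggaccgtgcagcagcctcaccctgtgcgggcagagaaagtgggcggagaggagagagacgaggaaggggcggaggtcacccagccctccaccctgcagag

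*Ptgs2* held a C/EBP match at bases -69 to -62 and, at bases 14 to 22 after the start, a CRE half-site that shares its last 2 bases with an E-box. No match to the 5 motifs lay in the windows of *Ptgs1* or *Ptgfr*. Of 32851 RefSeq promoter windows of 300 bases, 20.8% held the CRE half-site, 7.15% the E-box, 7.81% the AP-1 motif, 13.6% the TATA box and 10.8% the C/EBP motif. The table matched 8 of the 10 genes, all but *Ptgis* and *Ptger1*. In the other 5 windows the only matches were an AP-1 motif of *Ptgds* at bases -35 to -29 and a C/EBP motif of *Ptger2* at bases 40 to 47. A match of letters is a description and not a site of binding.

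In untreated irises, cyclooxygenase 1 transcripts were found mainly in leukocytes and the sphincter. *Ptgs1* (chromosome 2, 36230426 to 36252272) was at 33.1, 60.6 and 74.3 CPM in the leukocytes of the 3 untreated libraries, a mean of 56.0 ± 21.0 (SD, n = 3) that rests on 29 UMIs. Sphincter 1 followed at 14.4 ± 7.14 CPM, from 7.22 to 21.5, with no overlap with the leukocytes. The next types, endothelial cells at 8.44 ± 14.6 and sphincter 2 at 7.99 ± 9.05, overlapped with sphincter 1, and each rested on 5 UMIs or fewer. A UMI of *Ptgs1* was found in 27 of 193 untreated leukocytes, 14.0%, against 2 of 4357 dilator muscle nuclei, 0.0459%, although the median depth was 1998 UMIs in leukocytes and 3410 in dilator muscle. In the 5 treated libraries the leukocyte level lay between 26.1 and 74.0 CPM, within or just under the untreated range. The endothelial level was at 44.2, 134 and 0 CPM in the constricted libraries (7 UMIs) and at 14.2 and 41.2 in the dilated libraries (4 UMIs). *Ptgs1* passed the filter on low counts in no cell type, so its response to treatment was tested only without the filter. There none of its 20 comparisons, over 10 cell types and both treatments, was called (lowest edgeR adjusted p = 0.663), and 2 had an unadjusted p under 0.05. These 2 were with constriction, in endothelial nuclei (log2 fold change 2.14) and in stroma 2 (-2.69).

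Cyclooxygenase 2 transcripts were found mostly in stroma 2. *Ptgs2* (chromosome 1, 150100031 to 150108227) had 32 UMIs in untreated irises, and 30 of them, 93.8%, were in stroma 2. Its level there was 7.25, 3.44 and 3.68 CPM, a mean of 4.79 ± 2.14, while sphincter 1 and iris PE had 1 UMI each and the other 7 types none. A UMI was found in 27 of 3040 untreated stroma 2 nuclei, 0.888%, and in 0 of 4357 dilator muscle nuclei at a greater median depth, 3410 against 2425 UMIs. Over all 8 libraries 177 of 199 UMIs, 88.9%, lay in stroma 2.

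Among the terminal synthases, *Ptgds* (chromosome 2, 25466709 to 25470046), which encodes the lipocalin-type prostaglandin D synthase, was found in all 10 types. CBE had 6691 ± 3545 CPM and iris PE 4185 ± 2360, and their libraries overlapped. In each of the 3 untreated libraries, however, CBE was above iris PE, at 10776 against 6897, 4874 against 2597 and 4424 against 3062 CPM. No other type overlapped with iris PE: stroma 1, the other stromal type, was next at 1395 ± 410 CPM, and sphincter 1 was lowest at 418 ± 186. Iris PE, with its many nuclei, supplied 57.0% of the 67566 untreated UMIs.

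Untreated replicate 1 had the highest *Ptgds* level of the untreated libraries in all 10 types, at 1.58 to 3.35 times the mean of the other two. A UMI was found in 98.5% of iris PE nuclei and in 98.7% of CBE nuclei, but also in 55.1% of sphincter 1 nuclei and 57.5% of leukocytes. After each nucleus was thinned to 1000 UMIs, the shares were 88.4%, 91.3%, 25.4% and 33.7%. The part of free RNA in the lower shares was not tested.

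**Figure D2:**
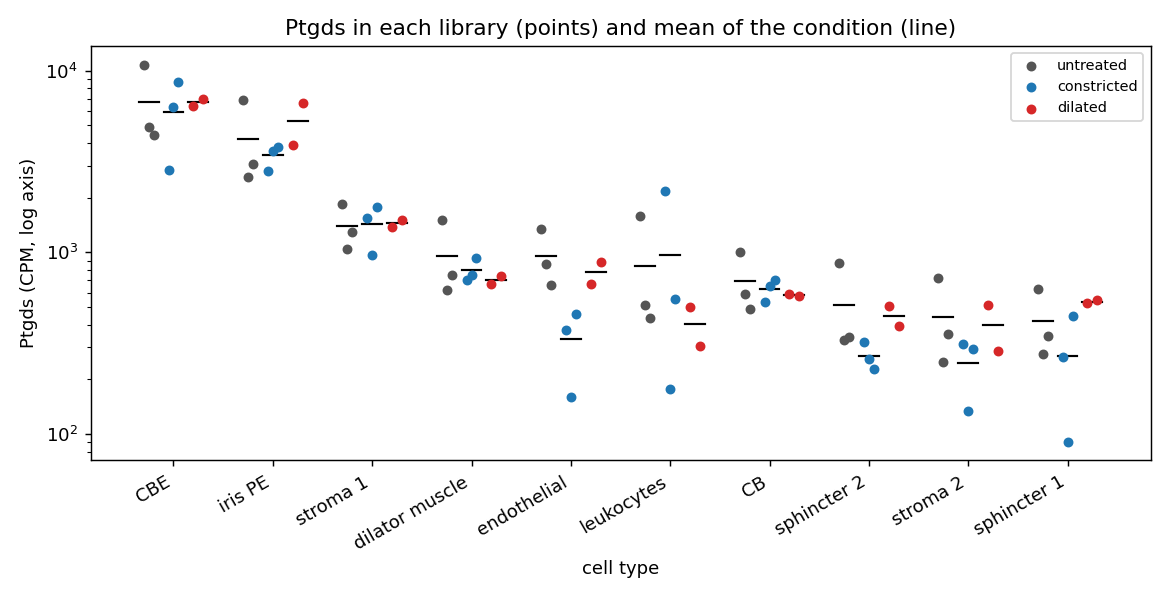
*Ptgds* level (y axis, CPM, log axis) in each of the 8 libraries (points, colored by condition) and mean of each condition (lines) for the 10 cell types (x axis), ordered by untreated mean. CBE and iris PE lie above all other types in the untreated libraries, and untreated replicate 1 is the highest untreated point in each type.

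*Ptgis* (chromosome 2, 167191805 to 167240604), which encodes prostacyclin synthase, had a stromal and a muscular pattern. Stroma 2 was at 49.6, 25.6 and 22.6 CPM, a mean of 32.6 ± 14.7. The 3 muscle types followed without overlap with stroma 2, sphincter 1 at 14.4 ± 1.69, dilator muscle at 12.9 ± 1.30 and sphincter 2 at 10.7 ± 1.68 CPM. Dilator muscle overlapped with both sphincter types. Sphincter 1, from 12.8 CPM, lay just above sphincter 2, up to 12.5 CPM, which rests on 14 UMIs. The other 6 types were at 2.06 CPM or less, which is a gap larger than the spread between libraries.

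*Ptges* (chromosome 2, 30889471 to 30929863), which encodes the inducible prostaglandin E synthase, was at 26.6, 25.6 and 26.9 CPM in stroma 2. This mean of 26.4 ± 0.648 was the most even of the stroma 2 levels of these genes, and stroma 2 held 63.0% of the untreated UMIs. The second value, 12.3 ± 18.1 CPM in leukocytes, rests on 2 UMIs, 1 of which amounts to 33.1 CPM in the leukocytes of untreated replicate 1, so that stroma 2 and leukocytes cannot be ordered. CB followed at 7.26 ± 6.23, stroma 1 at 4.66 ± 0.892 and dilator muscle at 3.81 ± 0.377 CPM.

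All 5 receptor genes were found in stroma 2, and *Ptgfr* and *Ptger2* had most of their UMIs there. *Ptgfr* (chromosome 3, 151796502 to 151837630), which encodes the receptor for prostaglandin F, was at 9.67, 18.1 and 12.5 CPM in stroma 2, a mean of 13.4 ± 4.32, and stroma 2 held 110 of 142 untreated UMIs, 77.5%. Its leukocyte level of 11.0 ± 19.1 CPM is 1 UMI of 1 library. The other 8 types were at 3.83 CPM or less, and dilator muscle and the 2 sphincter types, the muscles of the pupil, were at 0.709, 2.86 and 0.988 CPM.

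The 4 receptors for prostaglandin E differed in their distribution. *Ptger2* (chromosome 14, 44988195 to 45003820), whose product raises cyclic AMP, was at 18.1, 19.7 and 20.4 CPM in stroma 2 with 150 of 159 untreated UMIs, 94.3%. Leukocytes had 13.6 ± 17.3 CPM from 3 UMIs, and no other type reached 1 CPM. *Ptger4* (chromosome 15, 5206661 to 5244187), which also raises cyclic AMP, was at 14.8 ± 1.95 CPM in stroma 2 and at 13 ± 1.51 in stroma 1, which overlapped, and at 7.34 ± 1.54 in dilator muscle and 6.78 ± 1.68 in iris PE. Stroma 2 held 27.9% of its untreated UMIs.

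*Ptger1* (chromosome 8, 83666678 to 83672753), whose product raises intracellular calcium, was at 18.6 ± 5.26 CPM in stroma 2, and CB at 10.9 ± 2.68 overlapped with it. *Ptger3* (chromosome 3, 157566892 to 157645888), which lowers cyclic AMP, was the only receptor with its highest level outside the stroma, at 6.97 ± 0.812 CPM in iris PE and, without overlap, 4.32 ± 1.04 in dilator muscle. Stroma 2 was at 4.00 ± 1.78 CPM and overlapped with dilator muscle. It also just overlapped with iris PE, at 6.044 CPM in its highest library against 6.041 in the lowest of iris PE. An endothelial level of 4.22 ± 7.31 rests on 2 UMIs. Some of the 10 genes overlap others on the opposite strand, as *Ptger4* does with *Ttc33*, and *Ptgs1*, *Ptgis*, *Ptger2* and *Ptgfr* overlap noncoding or unclassified transcripts there. Whether strand was used in counting was not given in the sources used here, so reads of such pairs may not be told apart. Nuclei hold unspliced transcripts, and reads from introns were counted. Introns make up 82.2% to 94.7% of *Ptgs1*, *Ptgis*, *Ptges*, *Ptgfr*, *Ptger3* and *Ptger4* by length, but 10.2% of *Ptger1* and 44.1% of *Ptgs2*.

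Over the 10 cell types, the genes whose untreated pattern was most like that of a member were searched among 14391 genes by Pearson's r of log2(CPM + 1), for members with enough UMIs. They were *Atp1b3* (0.950) for *Ptgds*, *Dact3* (0.907) for *Ptgis*, *Tfg* (0.942) for *Ptges*, *9530068E07Rik* (0.937) for *Ptger1* and *Borcs5* (0.910) for *Ptger4*. These are descriptions over 10 points that share their libraries.

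Dilation was accompanied by higher levels of a cyclooxygenase, a terminal synthase and a receptor in stroma 2. Of the 100 pairs of gene and cell type, 26 passed the filter on low counts, from 9 genes, and 9 of the 26 were in stroma 2. Calls needed a log2 fold change beyond 0.6 in either direction and a Benjamini-Hochberg adjusted p below 0.05, by the quasi-likelihood test of edgeR on UMIs summed per library, with the adjustment made over every gene tested in that cell type. 3 of the 26 pairs were called for dilated against untreated, all higher and all in stroma 2, where 172 of 12788 genes, 1.35%, were called higher. Over all cell types 1.87% of the 85092 tests of any gene were called higher and 1.47% lower. The 3 genes were *Ptgs2*, *Ptgis* and *Ptgfr*. The 9 genes tested in stroma 2 had a median log2 fold change of 0.33, with 6 above 0 and 3 below, beside a median of 0.01 over all genes tested there. No pair was called lower by edgeR, with 3 lower at an unadjusted p under 0.05, and DESeq2 called 3 higher and 0 lower.

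*Ptgs2* in stroma 2 was at 15.9 and 34.5 CPM in the 2 dilated libraries, against 7.25, 3.44 and 3.68 in the untreated. Both dilated libraries lay above every untreated library, and they differed from each other more than the untreated libraries did. The log2 fold change was 2.58 (SE 0.505, edgeR adjusted p = 0.0234), a fold of 6.0. In the constricted libraries it was at 5.05, 14.0 and 4.59 CPM, with replicate 2 above the untreated range.

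*Ptgis* in stroma 2 was at 80.9 and 65.4 CPM in the dilated libraries against 49.6, 25.6 and 22.6 in the untreated. The dilated values lay above all others, and untreated replicate 1 was the nearest to them. The log2 fold change was 1.34 (SE 0.257, edgeR adjusted p = 0.0230), a fold of 2.53. The constricted values of 34.2, 35.5 and 30.8 CPM lay within the untreated range.

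*Ptgfr* in stroma 2 was at 48.5 and 33.9 CPM in the dilated libraries against 9.67, 18.1 and 12.5 in the untreated. The lower dilated library was above the highest of the other 6. The log2 fold change was 1.58 (SE 0.298, edgeR adjusted p = 0.0221), a fold of 2.98. The constricted values were 24.7, 22.6 and 13.1 CPM, of which 2 lay above the untreated range.

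**Figure D3:**
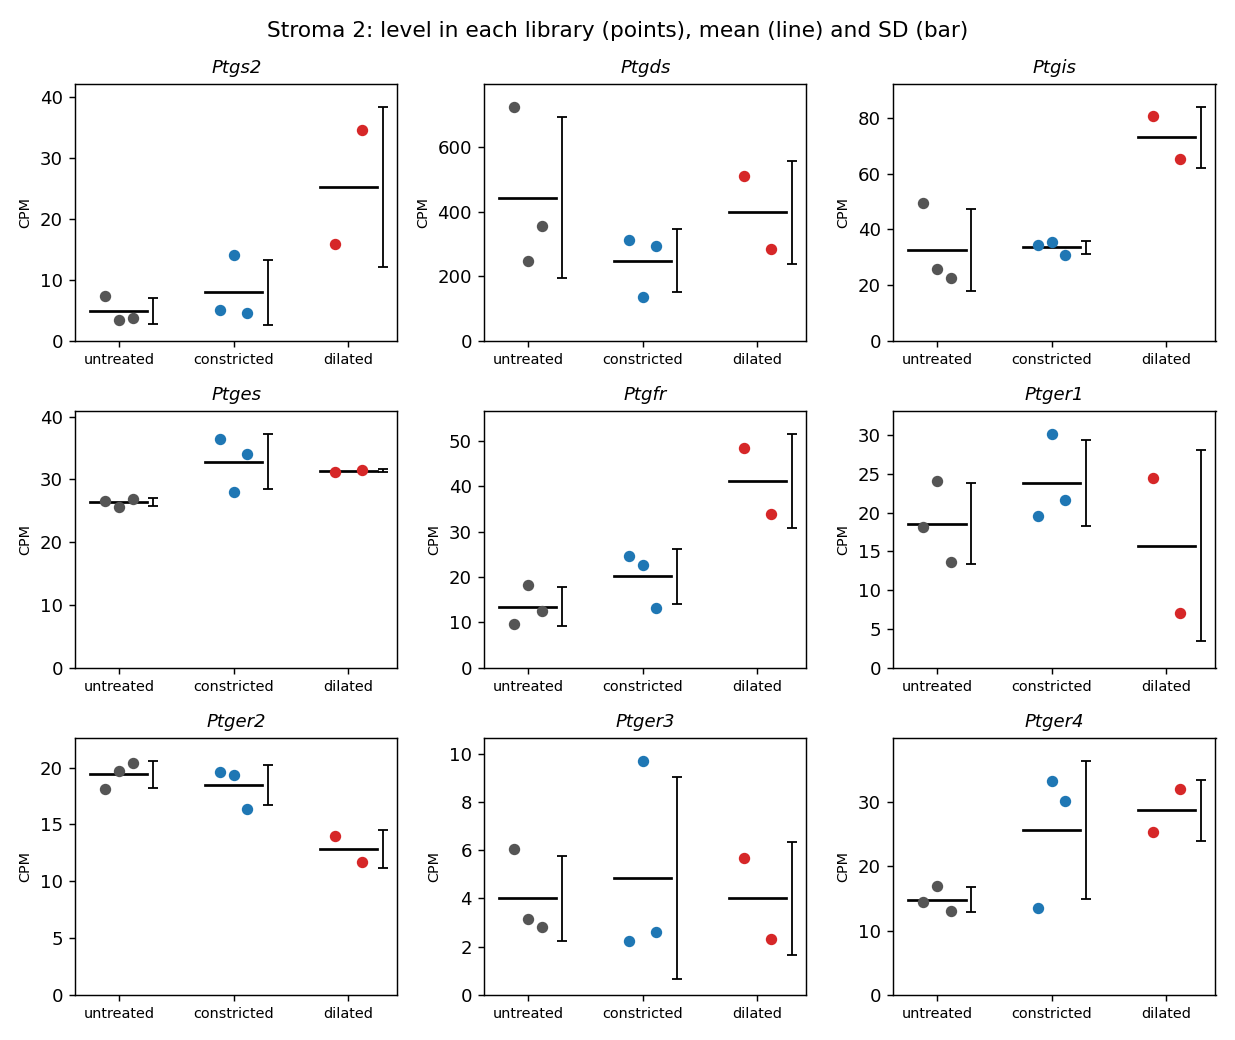
Level in stroma 2 (y axes, CPM, from 0) of the 9 genes tested there, in each library (points) of the 3 conditions (x axes), with the mean (line) and SD (bar). For *Ptgs2*, *Ptgis* and *Ptgfr* both dilated points lie above all untreated and constricted points, and for *Ptger2* they lie below.

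All 3 calls were lost when untreated replicate 2 or untreated replicate 3 was left out, with adjusted p from 0.0535 to 0.165. Without dilated replicate 1 the calls of *Ptgis* and *Ptgfr* were lost (adjusted p = 0.0931 and 0.135), and without dilated replicate 2 that of *Ptgs2* was lost (adjusted p = 0.135, log2 fold change 1.91). The lone dilated library was then assumed to vary like the other groups. The log2 fold changes stayed between 1.91 and 3.13 for *Ptgs2*, 1.11 and 1.62 for *Ptgis* and 1.33 and 1.88 for *Ptgfr* over the alternatives run.

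More stroma 2 nuclei had a UMI of each gene after dilation. A UMI of *Ptgs2* was found in 3.43% and 5.46% of the stroma 2 nuclei of the dilated libraries and in 2.17%, 0.759% and 0.761% of those of the untreated. For *Ptgis* the shares were 16.3% and 11.9% against 9.03%, 5.47% and 4.98%, and for *Ptgfr* 10.1% and 6.58% against 2.53%, 3.42% and 2.77%. The dilated shares were above the untreated ones for each gene, and untreated replicate 1, with 277 nuclei, was also the deepest of these 5 libraries in stroma 2 at a median of 2999 UMIs. Constricted replicate 2, deeper still at 3825 UMIs, had shares of 4.22% for *Ptgs2*, 9.70% for *Ptgis* and 7.59% for *Ptgfr*. Those of *Ptgs2* and *Ptgfr* lay above 1 of the dilated libraries. Thinned to 1000 UMIs per nucleus, the dilated shares were 1.14% and 2.71% for *Ptgs2*, 5.87% and 6.42% for *Ptgis* and 4.50% and 3.0% for *Ptgfr*, and the untreated shares at most 0.398%, 2.70% and 1.59%. The thinned constricted shares were at most 0.461%, 4.15% and 2.65%. At least 1 of the 3 transcripts was found in 26.4% and 21.7% of dilated stroma 2 nuclei against 12.6%, 9.26% and 8.23% of untreated ones. The constricted shares were 12.4%, 19.8% and 9.28%. All 3 were found together in 1 nucleus, of dilated replicate 1, and 2 or more in 46 and 16 nuclei of the dilated libraries.

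The markers of another cell type moved with this comparison. In stroma 2 the endothelial list (*Pecam1*, *Cldn5*, *Flt1*, *Tek*) summed to 589 and 795 CPM in the dilated libraries and to 199 to 297 in the untreated, and none of its 4 genes was at 0. The tight junction gene *Cldn5* accounted for most of this, at 373 and 631 CPM against 99.1 to 132. *Flt1*, a receptor gene for vascular endothelial growth factor, was also higher without overlap, at 126 and 172 CPM against 43.6 to 104, while the endothelial adhesion gene *Pecam1* was at 26.7 to 30.4 CPM against 14.4 to 45.9 and the receptor gene *Tek* at 8.18 to 17.5 against 5.63 to 48.3. In the endothelial nuclei themselves *Ptgs2* had 0 UMIs in all 8 libraries, and *Ptgfr* had 0 in the dilated libraries. *Ptgis* had 2 UMIs there in dilated replicate 1, or 14.2 CPM, and 0 in dilated replicate 2, against 0, 0 and 1 UMI in the untreated libraries. The red blood cell list, of 1 gene, was at 5.93 to 11.7 CPM in the dilated libraries against 0.283 to 3.44, and the stroma 2 list at 4133 to 4371 against 4915 to 5899. Their part in the result was not tested.

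The dilation effect on *Ptgis* differed between stroma 2 and dilator muscle. In dilator muscle it was at 6.02 and 7.01 CPM in the dilated libraries against 14.3, 11.8 and 12.5 in the untreated, and the groups did not overlap. The log2 fold change there was -0.79 (SE 0.264, edgeR adjusted p = 0.0646), which missed the threshold. It was called with the series of library numbers as a block (edgeR adjusted p = 0.0306) and from dilated and untreated libraries only (0.0490), and the adjusted p lay between 0.0306 and 0.335 over all alternatives. When the 2 cell types were fitted jointly, with library as a term, the effect in stroma 2 exceeded that in dilator muscle by 2.27 on the log2 scale (SE 0.280, edgeR adjusted p = 7.71e-05), and by 1.99 to 2.51 with any 1 library left out. *Ptgs2* and *Ptgfr* passed the filter in stroma 2 only, so the joint fit was not run for them. Without the filter their log2 fold changes in dilator muscle were 4.17 and 1.21, and neither was called (edgeR adjusted p = 0.143 and 0.390). The value of *Ptgs2* rests on 0 untreated and 6 dilated UMIs, 5 of them in replicate 1, at a dilated mean of 0.347 CPM. *Ptgfr* had 8 untreated and 18 dilated UMIs there.

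Among the members that were not called, *Ptger4* in stroma 2 was at 25.3 and 32.1 CPM after dilation against 14.5, 16.9 and 13 CPM. Its log2 fold change was 0.96 (SE 0.343, edgeR adjusted p = 0.252), so the difference did not pass the test although the groups did not overlap. It was called with the series of library numbers as a block (edgeR adjusted p = 0.0276) and without the filter (0.0414), and the adjusted p lay between 0.0276 and 0.690 over all alternatives. *Ptger2* in stroma 2 was at 14.0 and 11.7 CPM against 18.1, 19.7 and 20.4, with a log2 fold change of -0.56 (SE 0.247, edgeR adjusted p = 0.401). *Ptges*, the synthase next to cyclooxygenase in the path to prostaglandin E, was at 31.3 and 31.5 CPM in stroma 2 against 25.6 to 26.9, a log2 fold change of 0.28 (SE 0.199, edgeR adjusted p = 0.681). In dilator muscle *Ptges* was at 2.07 and 1.40 CPM against 3.48 to 4.22, with a log2 fold change of -0.93 (SE 0.396, edgeR adjusted p = 0.141). *Ptgds* had log2 fold changes from -0.79 in leukocytes to 0.47 in sphincter 1, none of them called. *Ptger1* and *Ptger3* were tested in stroma 2, dilator muscle and iris PE, with log2 fold changes from -0.56 to 0.33. *Ptger4* was at 11.3 and 12.3 CPM in iris PE after dilation, a log2 fold change of 0.73 (edgeR adjusted p = 0.563).

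**Figure D4:**
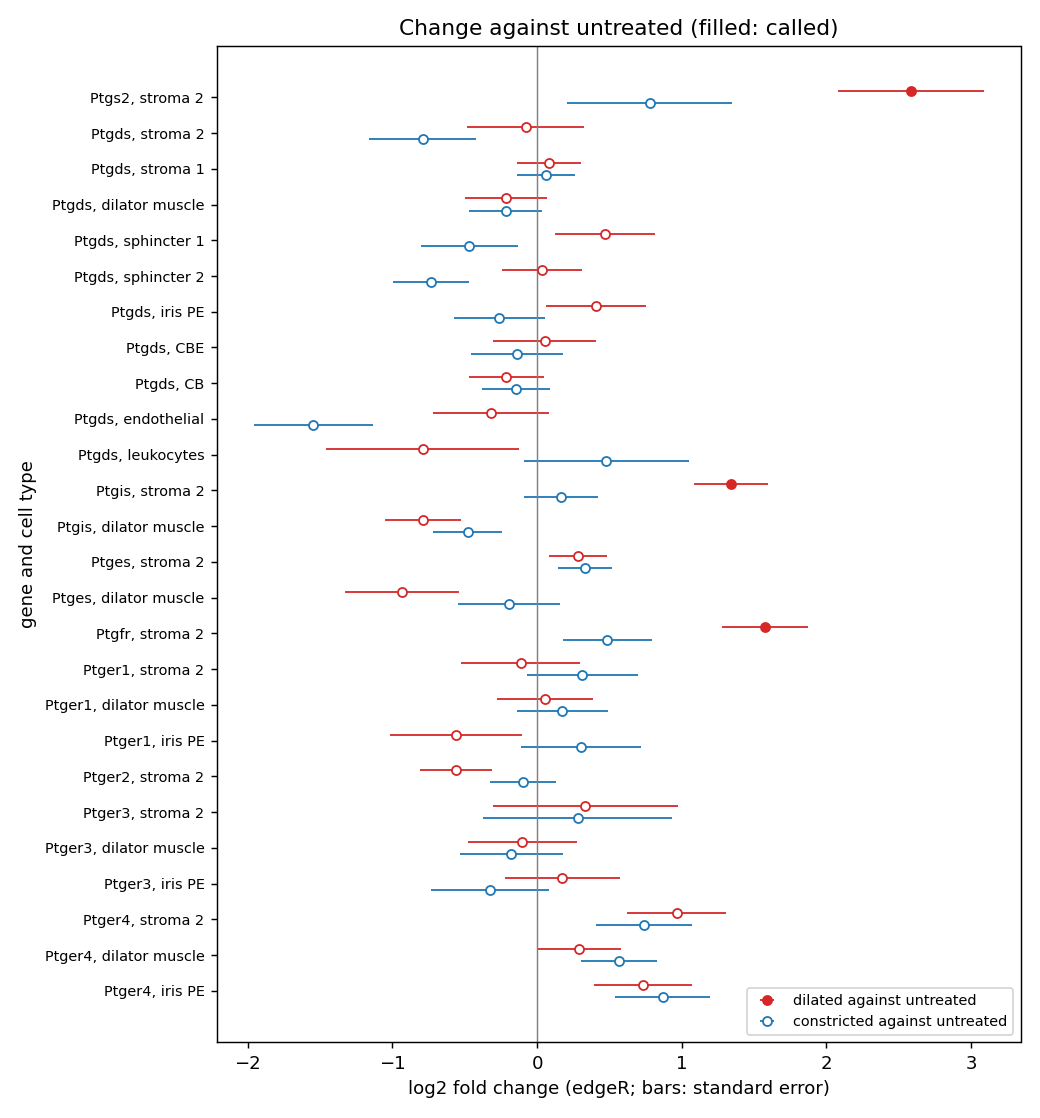
Log2 fold change against untreated (x axis, edgeR, bars: standard error) of the 26 tested pairs of gene and cell type (y axis), for dilated and constricted irises, with called values filled. The 3 filled points are *Ptgs2*, *Ptgis* and *Ptgfr* in dilated stroma 2.

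With constriction none of the 26 pairs was called. edgeR called 0, with 2 higher and 2 lower at an unadjusted p under 0.05, and DESeq2 called 0. Over all cell types 10 of 85092 tests of any gene, 0.0118%, were called. The median log2 fold change of the 26 pairs was -0.02. Both comparisons share the untreated libraries, so their values are given side by side only. In stroma 2 the constricted log2 fold changes were 0.78 (SE 0.569) for *Ptgs2*, 0.17 (SE 0.258) for *Ptgis* and 0.48 (SE 0.308) for *Ptgfr*.

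The receptor gene *Ptger4* had positive constricted log2 fold changes in the 3 types where it was tested, 0.74 in stroma 2, 0.87 in iris PE and 0.56 in dilator muscle, and none was called (edgeR adjusted p = 0.931, 0.999 and 1.00). In iris PE it was at 8.54, 18.9 and 14.2 CPM in the constricted libraries against 5.02, 6.96 and 8.35 in the untreated. These ranges nearly touched, and constricted replicate 2 was the highest. In stroma 2 the constricted values were 13.5, 33.4 and 30.2 CPM, of which replicate 1 lay in the untreated range.

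*Ptgds* in endothelial nuclei had the smallest adjusted p of the constricted comparison. It was at 375, 160 and 459 CPM against 1338, 861 and 661 in the untreated, a log2 fold change of -1.55 (SE 0.412, edgeR adjusted p = 0.129). The constricted libraries lay below the untreated ones, but a library held only 12 to 65 endothelial nuclei, and the untreated order was again led by replicate 1. Without the filter on low counts, which raises the number of genes tested, this gene was called in endothelial nuclei (log2 fold change -1.80, edgeR adjusted p = 0.00531) and in stroma 2 (-0.78, edgeR adjusted p = 0.00542). In stroma 2 it was at 313, 135 and 294 CPM in the constricted libraries against 725, 248 and 357 in the untreated. These ranges overlapped, and untreated replicate 1 was again the highest.

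The rest of the prostanoid pathway was read from a list of 37 other genes, 35 of them counted here, for arachidonate release, further terminal synthases and receptors, inactivation, transport and regulation. 30 genes passed the filter in at least 1 cell type, in 164 pairs. With dilation 3 pairs were called higher and 4 lower, beside 1.87% higher and 1.47% lower over the tests of all genes in the 10 cell types, and 10 higher and 21 lower had an unadjusted p under 0.05. With constriction 0 were called by edgeR or DESeq2, with 9 higher and 11 lower at an unadjusted p under 0.05. The median log2 fold change of the 164 pairs was -0.07 with dilation.

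5 of the 7 calls were in dilator muscle, where 7.2% of 15395 genes were called higher and 6.14% lower with dilation, and 5 of the 28 genes of the list tested there were called. *Mgll*, the monoacylglycerol lipase that can release arachidonate, was at 5390 and 6635 CPM in the dilated libraries against 3226 to 3901, a log2 fold change of 0.98 (SE 0.176, edgeR adjusted p = 0.00281). The secreted phospholipase gene *Pla2g2e* rose from 11.8 to 13.4 CPM to 23.0 and 28.2 (log2 fold change 1.17, edgeR adjusted p = 0.00215), and its relative *Pla2g5* fell from 50.8 to 60.5 CPM to 29.1 and 31.8 (-0.64, edgeR adjusted p = 0.0120). *Tbxas1*, which encodes thromboxane synthase, fell from 181 to 188 CPM to 31.1 and 39.3 (log2 fold change -2.20, SE 0.205, edgeR adjusted p = 4.41e-05). It overlaps *Hipk2* on the opposite strand, whose log2 fold change was 0.40 there and was not called. *Ptgfrn*, which encodes a protein that binds and restrains the prostaglandin F receptor, fell from 192 to 246 CPM to 77.9 and 126 (-0.93, edgeR adjusted p = 0.00778). The call of *Ptgfrn* was lost without dilated replicate 2 (adjusted p = 0.0944) and that of *Pla2g5* without dilated replicate 1 or 2 or untreated replicate 2 or 3 (adjusted p = 0.0503 to 0.0796).

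The other calls were in small groups of nuclei. *Mgll* in sphincter 2 rose from 1035 to 1276 CPM to 2426 and 3323 (log2 fold change 1.35, SE 0.204, edgeR adjusted p = 8.49e-05), where 1.46% of genes were called higher. *Hpgd*, which encodes the enzyme that inactivates prostaglandins, was at 66.0 and 111 CPM in leukocytes after dilation against 557 to 894, a log2 fold change of -2.86 (SE 0.404, edgeR adjusted p = 0.00230), where 0.562% of genes were called lower and the 2 dilated libraries held 22 UMIs of it. No gene of the list was called in stroma 2, where 28 were tested, beside 172 higher and 49 lower among all 12788 genes tested there. At these shares a list of 28 may well hold none.

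In untreated irises 5 genes of the list with at least 100 UMIs had their highest level in leukocytes without overlap with the next type. *Hpgds*, which encodes the hematopoietic prostaglandin D synthase, was at 724 ± 96.7 CPM there and at 138 ± 3.12 in stroma 1, and *Tbxas1* was at 529 ± 56.9 there and at 192 ± 19.0 in iris PE. *Hpgd* was at 725 ± 168 CPM in leukocytes and 458 ± 21.7 in sphincter 1, *Daglb*, a diacylglycerol lipase gene, at 173 ± 16, and *Ppard*, a nuclear receptor gene, at 178 ± 52.4. Stroma 2 led for the prostacyclin receptor gene *Ptgir* (12.7 ± 0.529 CPM), the diacylglycerol lipase gene *Dagla* (30.8 ± 5.76) and the transporter gene *Slco3a1* (1821 ± 283, against 224 ± 48.8 in CBE). Stroma 1 led for *Pla2g2e* at 150 ± 5.29 CPM, and CB for *Mgll* at 5125 ± 941 and for the exporter gene *Abcc4* at 455 ± 130.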

How the data were processed

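Nuclei of 8 iris libraries, 3 untreated, 3 constricted and 2 dilated, were profiled by 10x Genomics 3' RNA-seq. The authors counted UMIs from exonic and intronic reads on mm10 with Cell Ranger 3.1.0, kept nuclei with at most 1% mitochondrial transcripts and 500 to 6000 transcripts, and clustered them with Seurat 4.0.1. The deposited matrices hold counts of UMIs per gene and nucleus, not normalized. The deposited nucleus tables hold UMI and gene counts as the authors made them, the mitochondrial percent of transcripts and the assigned cell type. UMI totals differed by at most 13 from the matrices in 7.88% of nuclei. Per-nucleus quality values were not tested.

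For each cell type, UMIs were added up by library and scaled to CPM. edgeR 4.0.16 (R 4.3.3; TMM, filterByExpr, glmQLFit and glmQLFTest, two-sided) was fitted per cell type to all 8 libraries, with DESeq2 1.42.0 as an alternative, and the code was tested on simulated data. Cell types were compared by range over the untreated libraries only. Shares of nuclei carry exact binomial intervals (95%) in the tables and were repeated after thinning to 1000 UMIs, without shallower nuclei, and intervals cover counting error only. Scrublet (scanpy 1.11.5) called 1.04% of nuclei doublets, which were kept except in an alternative. Libraries are separate pools, and replicate numbers are not stated to pair them. Positions are from GENCODE vM21 and promoters from RefSeq (GRCm38.p6). Pathway genes were named where called, or where the highest cell type lay above the next without overlap with at least 100 UMIs, and genes of like pattern were the closest by Pearson's r for members with at least 200 untreated UMIs. The genes, lists and motifs were chosen with earlier results of these data known. Python 3.11.15 was used with pandas 2.3.3, numpy 2.4.6, scipy 1.17.1 and matplotlib 3.10.9.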

Additional observations from a re-analysis of the deposited data

Results flagged for a closer look

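The dilation effect on *Ptgis* differed between 2 cell types by a test of the difference itself. The log2 fold change for dilated against untreated was 1.34 in stroma 2 and -0.79 in dilator muscle, and their difference was 2.27 (SE 0.280, edgeR adjusted p = 7.71e-05 over 15749 genes). Both dilated libraries were above all 3 untreated libraries in stroma 2 and below them in dilator muscle. Only the stroma 2 effect was called by itself.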

How the results depend on the processing

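None of the 19 log2 fold changes of single genes followed over the alternatives changed sign. Most of these were called or had an unadjusted p under 0.05 in the main fit. The alternatives reuse mostly the same libraries, so a change of sign was unlikely from the start. Of the members, 3 were called with dilation, 5 with the library number series as a block and 0 to 3 with 1 library left out, the 0 without untreated replicate 2 or 3. With constriction 0 were called, and 2 without a filter on low counts. Same-numbered libraries did not all correlate above 0.1 once each condition was centered on its mean. In dilator muscle the values were 0.255, -0.0153 and 0.283 for constricted with untreated replicates 1 to 3. They were 0.230 and 0.186 for dilated with untreated replicates 1 and 2. Differently numbered libraries correlated too where both lay in library numbers 15 to 18, as constricted replicate 3 with untreated replicate 2 (0.232). Across series, constricted replicate 1 with untreated replicate 2 was at -0.235. The part of collection batch was not tested. With the replicate block 3 members were still called with dilation, and 13 of the pathway list. On that list 7 pairs were called with dilation, 11 with DESeq2, 13 without a filter, 16 with the series as a block, 12 from dilated and untreated libraries only, and 5 to 12 with 1 library left out. With constriction 1 was called without a filter. The share of all genes called under each alternative is not given here, so changes in these counts are not read as particular to these genes. *Ptgis* in dilator muscle was called with the series as a block (adjusted p = 0.0306) and from dilated and untreated libraries only (0.0490), and *Ptger4* in stroma 2 with the series as a block (0.0276) and without a filter (0.0414). The cause was not tested.

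Log2 ratios between the first and second cell types of the untreated libraries were taken with 1 CPM added to each level. This addition weighs on ratios to levels near 0. With the same pair kept, over all 8 libraries they were 3.44 for *Ptgs2* and 1.66 for *Ptgis* (stroma 2 to sphincter 1). They were 1.61 for *Ptger1* (stroma 2 to CB) and 1.38 for *Ptger4* (stroma 2 to stroma 1). Per 10000 nuclei, over the untreated libraries only, the ratios were 3.48 for *Ptgs2* and 0.0854 for *Ptger4*. These differ from the ratios over all 8 libraries in both scaling and libraries, so the effect of scaling alone cannot be read from them. The log2 ratio of *Ptgfr* in stroma 2 to leukocytes was 0.26, and -0.54 to 4.03 with 1 untreated library left out, since the leukocyte value is 1 UMI. The 4.03 is set by the added 1 CPM, as leukocytes were then at 0. Thinned to 1000 UMIs per nucleus, shares fell to 6.18% for *Ptgs1* in leukocytes, 91.3% for *Ptgds* in CBE, 0.598% for *Ptger3* in iris PE and, in stroma 2, 0.377% for *Ptgs2*, 2.53% for *Ptgis*, 2.98% for *Ptges*, 1.47% for *Ptgfr*, 1.68% for *Ptger1*, 1.81% for *Ptger2* and 1.16% for *Ptger4*, since thinning removes UMIs. Depth limits the rare cell types most, where 1 UMI of a leukocyte or endothelial library was up to 38.3 CPM.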

Other observations

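The receptor gene *Ptger4* had few UMIs in stroma 1 after treatment. This pair was singled out after its values were seen, and it did not pass the filter on low counts. In stroma 1 it was at 12.6, 14.6 and 11.7 CPM in the untreated libraries (46 UMIs), at 8.58, 7.75 and 3.85 in the constricted libraries (10 UMIs) and at 1.39 and 3.33 in the dilated libraries (3 UMIs), so every treated library lay below every untreated one. Without the filter its log2 fold change with dilation was -2.46 (SE 0.749, edgeR adjusted p = 0.0670), which was not called. With constriction it was -0.98 (SE 0.552, edgeR adjusted p = 0.969), also not called. In stroma 2 the log2 fold change of *Ptger4* with dilation was 0.96 with the filter and not called either. The difference between the cell types was not tested.

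*Ptger1* in CB was at 8.67, 13.9 and 10.1 CPM in the untreated libraries (13 UMIs), at 6.21, 4.28 and 0 in the constricted libraries (5 UMIs) and at 3.35 and 0 in the dilated libraries (6 UMIs). All treated values lay below the untreated ones, and this pair too was chosen after its values were seen. Without the filter the log2 fold changes were -1.28 with constriction and -1.87 with dilation (edgeR adjusted p = 0.896 and 0.953), and neither was called.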
